A study of Homo sapiens with 12 samples.

Results

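The acetylation maps of a pair of squamous cancer lines, HCC95 from lung and BICR31 from head and neck, were compared. They are 2 of the 12 samples of the series, with 1 library each. The series measured histone H3 acetylated at lysine 27 (H3K27ac) by chromatin immunoprecipitation and sequencing (ChIP-seq) in human cancer cell lines. HCC95 is labelled a squamous cell lung carcinoma line. BICR31 is listed as head and neck squamous in the design text, while its own sample label reads lung adenocarcinoma; the design text was followed here. Both lines were untreated, were grown in RPMI with fetal bovine serum, and were precipitated with the same antibody, ab4729. With no second library of either line, every difference below is a difference between these 2 peak lists and no test was made. Line, organ and library cannot be told apart.

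H3K27ac is deposited by the acetyltransferases p300 and CBP on nucleosomes beside active promoters and enhancers. Enhancer acetylation is more cell-type specific than promoter acetylation. In squamous epithelia, enhancers of this kind are bound by the basal-cell factors p63, SOX2, KLF5 and AP-2, and they lie around keratin, desmosome and hemidesmosome genes. A peak list records only where enrichment was called. A stretch without a peak may carry acetylation below the caller's threshold.

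The members were all peaks of both lists on chromosomes 1 to 22, with positions on the hg19 build. HCC95 had 22850 such peaks of 23708 deposited, covering 21.05 Mb, and BICR31 had 41161 of 42187, covering 39.8 Mb. Peaks were of like width, with a median of 823 bp in HCC95 and 896 bp in BICR31. Median fold enrichment over local background, the authors' value for each peak, was also alike, at 3.80 and 3.81. The most significant peak had a −log10 q of 51.1 in HCC95 and 81.3 in BICR31. Sequencing depth is unknown, because a peak list holds no read numbers, and the longer BICR31 list shapes every count from the full lists. The same counts are therefore given after keeping the 20000 peaks of highest −log10 q in each list. That step ended at a −log10 q of 1.47 in HCC95 and of 2.97 in BICR31. The last peak kept and the first left out had a −log10 q of 1.47498 and 1.47497 in HCC95, and of 2.96675 and 2.96667 in BICR31.

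A gene start counted as marked in a line when the full list of that line had a peak between 2 kb before and 20 kb after its rounded position. Of the genes whose starts were marked in BICR31 alone, the promoters of 3 secreted signalling genes are shown, because their TATA box is readable in the sequence. AREG and EREG encode amphiregulin and epiregulin, ligands of the EGF receptor, and CXCL8 encodes the neutrophil chemokine interleukin 8. The sequences are RefSeq's, in GRCh38.p14, from 250 bases before to 50 bases after the gene's start, on the plus strand at chr4:74444886-74445185 (AREG), chr4:74364895-74365194 (EREG) and chr4:73740319-73740618 (CXCL8). Capitals mark TATAAA and, in CXCL8, the AP-1 type motif TGANTCA, where N is any base.

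AREG: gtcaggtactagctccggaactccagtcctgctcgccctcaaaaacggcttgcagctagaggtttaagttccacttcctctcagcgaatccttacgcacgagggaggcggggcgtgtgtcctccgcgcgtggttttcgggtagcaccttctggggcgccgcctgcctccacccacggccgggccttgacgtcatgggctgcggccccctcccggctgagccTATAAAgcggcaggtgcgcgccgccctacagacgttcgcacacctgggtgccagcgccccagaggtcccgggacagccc

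EREG: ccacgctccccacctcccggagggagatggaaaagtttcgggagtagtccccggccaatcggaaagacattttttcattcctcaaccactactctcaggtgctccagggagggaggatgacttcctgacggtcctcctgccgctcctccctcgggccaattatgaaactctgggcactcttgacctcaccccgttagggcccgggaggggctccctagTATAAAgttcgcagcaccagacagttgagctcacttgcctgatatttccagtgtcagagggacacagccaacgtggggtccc

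CXCL8: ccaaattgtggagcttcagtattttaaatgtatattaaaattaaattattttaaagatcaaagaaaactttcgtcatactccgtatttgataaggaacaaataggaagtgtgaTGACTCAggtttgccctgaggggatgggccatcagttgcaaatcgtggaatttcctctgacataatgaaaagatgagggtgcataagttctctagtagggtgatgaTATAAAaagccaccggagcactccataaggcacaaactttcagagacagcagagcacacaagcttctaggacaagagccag

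TATAAA began 29 bases before the start in AREG, 32 in EREG and 31 in CXCL8. It was read on the gene's strand and the reverse strand, as was TGANTCA, and the motifs do not overlap each other here. Of 35116 RefSeq promoters of this length, 11.5% hold TATAAA and 7.71% hold TGANTCA. The 3 shown were chosen for their TATA box and cannot be set against that share. Among other genes marked at the start in BICR31 alone, IVL also holds both motifs. The promoters of GATA3, GATA6, TGFBI and NKX2-1 hold neither. A match of letters describes the sequence and is not evidence of binding.

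A second set shows promoters of a different kind, from the chromosome 19 zinc finger genes where whole stretches of peaks were present in one line and absent from the other. KRAB zinc finger proteins are repressors, many of which bind transposable elements and recruit heterochromatin. ZNF568 (plus strand, chr19:36916082-36916381), ZNF420 (plus strand, chr19:37078183-37078482) and ZFP30 (minus strand, chr19:37656212-37656511) lie in the stretch found in HCC95. ZNF433 (minus strand, chr19:12035630-12035929) and ZNF625 (minus strand, chr19:12156685-12156984) lie in the one found in BICR31. They are from the same RefSeq table, with each CG dinucleotide, the site of DNA methylation, in capitals.

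ZNF568: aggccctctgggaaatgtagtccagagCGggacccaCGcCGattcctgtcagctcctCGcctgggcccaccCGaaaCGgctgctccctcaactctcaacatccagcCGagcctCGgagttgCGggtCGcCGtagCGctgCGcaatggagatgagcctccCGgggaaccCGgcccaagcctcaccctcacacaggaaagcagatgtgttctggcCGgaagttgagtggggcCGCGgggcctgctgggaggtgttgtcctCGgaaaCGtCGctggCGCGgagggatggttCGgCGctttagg

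ZNF420: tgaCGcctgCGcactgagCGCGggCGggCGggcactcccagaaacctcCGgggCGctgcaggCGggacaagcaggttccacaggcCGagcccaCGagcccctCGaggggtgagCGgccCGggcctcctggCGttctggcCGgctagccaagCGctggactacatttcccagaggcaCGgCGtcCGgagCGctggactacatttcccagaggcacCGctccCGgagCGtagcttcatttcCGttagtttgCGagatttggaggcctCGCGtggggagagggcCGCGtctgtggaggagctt

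ZFP30: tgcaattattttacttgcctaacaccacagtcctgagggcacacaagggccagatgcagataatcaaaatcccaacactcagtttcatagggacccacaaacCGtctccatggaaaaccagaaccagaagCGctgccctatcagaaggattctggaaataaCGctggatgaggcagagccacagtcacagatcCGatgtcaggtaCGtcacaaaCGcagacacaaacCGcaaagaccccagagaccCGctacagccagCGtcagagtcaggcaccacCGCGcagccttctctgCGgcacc

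ZNF433: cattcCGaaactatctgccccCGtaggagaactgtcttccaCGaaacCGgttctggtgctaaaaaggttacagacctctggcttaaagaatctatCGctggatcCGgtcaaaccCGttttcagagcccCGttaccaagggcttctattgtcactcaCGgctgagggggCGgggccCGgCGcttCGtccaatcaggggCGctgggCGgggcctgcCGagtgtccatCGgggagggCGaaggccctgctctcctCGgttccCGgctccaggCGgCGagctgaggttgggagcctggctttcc

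ZNF625: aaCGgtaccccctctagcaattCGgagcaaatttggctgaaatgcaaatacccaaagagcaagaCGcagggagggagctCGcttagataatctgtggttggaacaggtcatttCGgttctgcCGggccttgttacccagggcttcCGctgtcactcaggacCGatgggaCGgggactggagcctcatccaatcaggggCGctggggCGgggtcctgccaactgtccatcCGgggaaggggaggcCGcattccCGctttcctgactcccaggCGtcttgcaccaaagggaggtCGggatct

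The ZNF568 promoter holds 25 CG dinucleotides, ZNF420 holds 30, ZFP30 holds 12, ZNF433 holds 22 and ZNF625 holds 16. Over the 19 promoters found for the HCC95 stretch the count ran from 12 to 34, with a median of 19. Over the 5 found for the BICR31 stretch it ran from 13 to 22, with a median of 16. The median of all 35116 promoters was 14, with quartiles of 4 and 28, so these counts lie mostly inside the usual range.

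Most of what HCC95 had was also in BICR31, and the reverse did not hold. Merging peaks that overlap by at least 1 bp gave 47179 regions. Of these, 16668 (35.3%) were shared, 6155 (13%) were in HCC95 only and 24356 (51.6%) in BICR31 only. Counted as peaks, 73.1% of the HCC95 list (95% Wilson interval 72.5 to 73.6) and 40.8% of the BICR31 list (40.4 to 41.3) lay in shared regions. These intervals cover counting error only, and neighbouring peaks are not independent. Both lines together covered 47.7 Mb, of which 13.13 Mb were called in both, a base-pair Jaccard index (bases in both over bases in either) of 0.275.

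At equal length, both lines have nearly the same number of single-line regions by construction. The 20000 peaks of each line merged into 28148 regions, of which 11773 (41.8%) were shared, 8207 (29.2%) were HCC95-only and 8168 (29%) BICR31-only, and the Jaccard index was 0.322. Of the 8207 HCC95-only regions, 3599 (43.9%) did have a weaker BICR31 peak further down its list, and 688 (8.42%) of the 8168 BICR31-only regions had one in HCC95. These shares depend on how many peaks were set aside, which was 21161 in BICR31 and 2850 in HCC95. This left 4608 HCC95 regions and 7480 BICR31 regions with no peak at all in the other line.

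Sharing rose with peak strength in both lines. In the full HCC95 list, 43.9% of the lowest 10% of peaks by −log10 q were in shared regions and 95.3% of the highest 10%. In BICR31 these shares were 12.3% and 89.9%. At equal length the curves of the lines ran close together, from 31.3% to 88.6% in HCC95 and from 31.4% to 92.0% in BICR31.

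**Figure D1:**
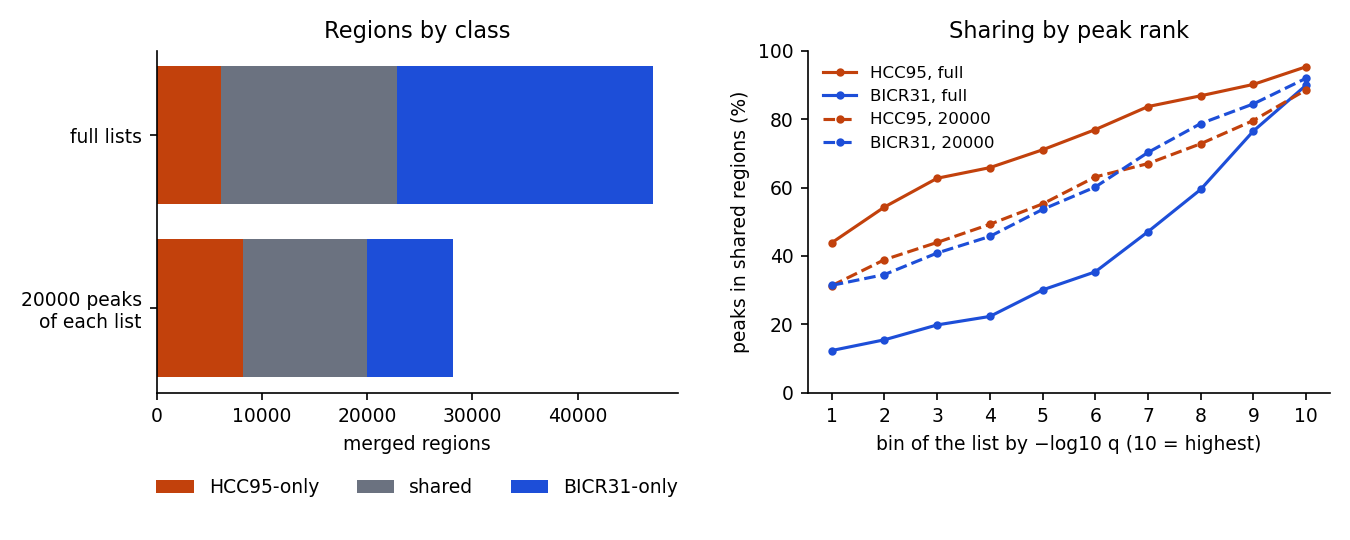
Left, number of merged regions that were HCC95-only, shared or BICR31-only, for the full lists and for the 20000 peaks of highest −log10 q of each list. Right, percent of peaks in shared regions in 10 equal bins of the list ranked by −log10 q; solid lines are the full lists and dashed lines the 20000 peaks, and all 4 lines climb from the lowest to the highest bin.

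Shared peaks were wider than single-line peaks. In HCC95 the median width was 909 bp for shared and 584 bp for HCC95-only peaks, with median folds of 3.94 and 3.49. In BICR31 the widths were 1171 bp and 714 bp and the folds 4.23 and 3.63. Wider peaks overlap others more readily. Within shared regions BICR31 had more called bases in 11378 of 16668 (68.3%), with a median of 1180 bp against 911 bp in HCC95. Across shared regions, Spearman's rho between the lines was 0.51 for fold and 0.42 for called bases. These are descriptions across regions of the same genome and carry no p. The widest shared region, at chr1:17764719-17769879, spanned 5161 bp, of which BICR31 covered 4732 and HCC95 1602. The next was chr11:65185972-65191020, 5049 bp wide, with 1517 bases called in HCC95 and 5049 in BICR31. The others of the 5 widest were at chr1:234744115-234749082, chr20:45944302-45949069 and chr5:14035037-14039778, from 4968 to 4742 bp. All 5 also had a peak in at least 3 of the 6 libraries of the other lines.

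Those 6 libraries, from the lung adenocarcinoma lines H358 and H2009 and the endometrial line Ishikawa with 2 each, gave a readout that the merging did not use. A peak in any of them was present in 85.2% of shared regions, in 30.4% of HCC95-only regions (95% Wilson interval 29.3 to 31.6) and in 37.8% of BICR31-only regions (37.2 to 38.4). A peak in all 6 was present in 49.8% of shared regions, against 3.14% of HCC95-only (193 regions) and 2.32% of BICR31-only (566 regions). Thus 4283 HCC95-only and 15150 BICR31-only regions were called in neither the other squamous line nor any of the 6. With both libraries of a line required, HCC95-only regions were found in Ishikawa (15.5%) more often than in H358 (7.93%) or H2009 (6.79%). BICR31-only regions were found in Ishikawa (11.3%), H2009 (10.2%) and H358 (9.87%) at closer shares. The lists of the other lines came in other file forms, and the part of file form in these shares was not tested. At equal length the shares in any of the 6 were 92.8% for shared, 47.8% for HCC95-only and 55.1% for BICR31-only regions.

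Single-line regions were unevenly spread over chromosome arms. At equal length, HCC95-only regions made up 50.1% of all single-line regions. The share was highest on 8p at 72.5% (171 of 236 regions; 95% Wilson interval 66.4 to 77.8), then 20p at 67.8% (122 of 180), 9p at 66.5% (123 of 185), 18p at 63.9% (69 of 108), 7q at 63.8% (351 of 550) and 17q at 61.4% (374 of 609). It was lowest on 10p at 32.3% (84 of 260; 26.9 to 38.2), 14q at 35.5% (197 of 555), 16p at 36.7% (97 of 264), 6p at 37.4% (202 of 540), 21q at 37.8% (65 of 172) and 11q at 38.6% (212 of 549). In the full lists, where the share over all arms was 20.2%, 18p (33.3%), 8p (30.9%) and 19q (30.1%) stood highest and 14q (11.7%), 10p (12.1%) and 21q (13.08%) lowest. The short arm of chromosome 21, with 11 single-line regions at equal length, was too small to rank.

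**Figure D2:**
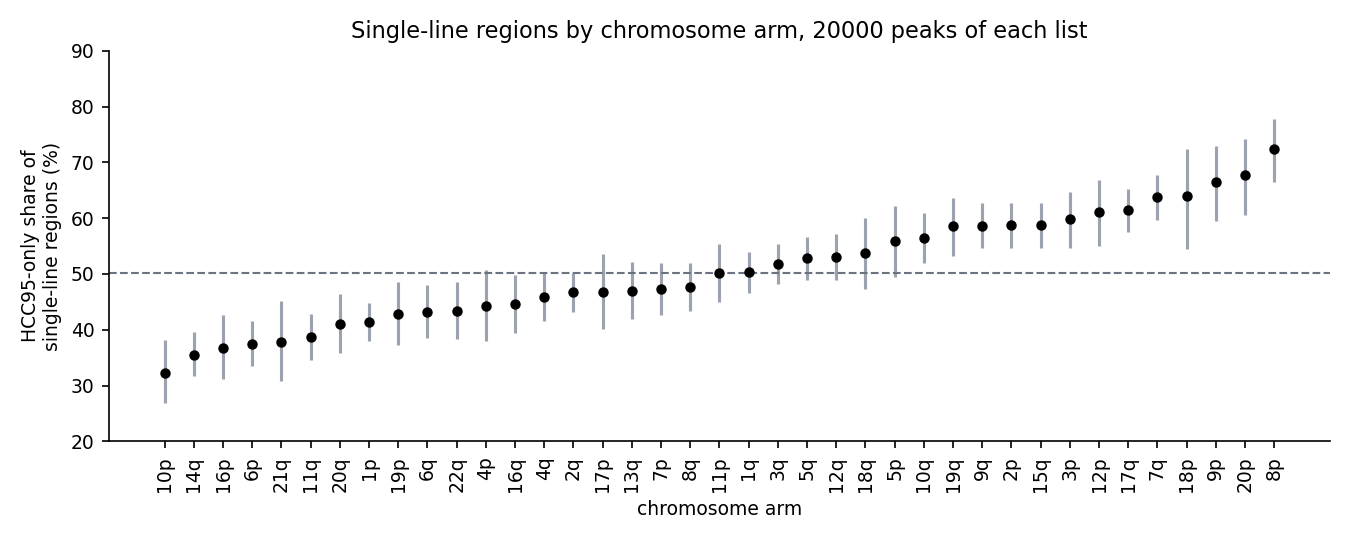
HCC95-only regions as a percent of single-line regions on each chromosome arm with at least 50 of them, using 20000 peaks of each list; bars are 95% Wilson intervals and the dashed line is the 50.1% of all arms. The arms run from 32.3% on 10p to 72.5% on 8p.

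The lines were also compared in windows of 2 Mb. Of 1364 windows with a region at equal length, HCC95-only regions were more numerous in 650, BICR31-only regions in 577, and 137 were even. The window from 34 to 36 Mb on 11p had 60 HCC95-only and 4 BICR31-only regions, the widest gap of all. On the HCC95 side it was followed by 38 to 40 Mb on 19q (35 against 6) and 32 to 34 Mb on 8p (28 against 0). On the BICR31 side the largest gap was at 30 to 32 Mb on 6p, inside the major histocompatibility complex (MHC), with 57 BICR31-only and 3 HCC95-only regions. Next came 6 to 8 Mb on 7p (35 against 2), which holds the RAC1 gene, and 8 to 10 Mb on 3p (33 against 1), which holds SETD5.

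In the full lists BICR31-only regions were more numerous in 1215 of 1376 windows and HCC95-only regions in 110. The median difference, HCC95-only minus BICR31-only, was −11. Among the HCC95-side windows, 11p and 8p kept an HCC95 excess in the full lists, at 41 against 20 and 25 against 3. The 19q window turned to 19 HCC95-only and 24 BICR31-only regions there. All 3 BICR31-side windows kept their direction, which is that of most windows in the full lists. Their counts were 80 against 1 on 6p, 58 against 1 on 7p and 61 against 0 on 3p. Without its 34 to 36 Mb window, 11p had an HCC95-only share of 40.3% at equal length in place of 50.1%. Without its own window 8p still had 68.8%. On the BICR31 side, leaving out the named window gave 6p 41.5% in place of 37.4%. The same step gave 7p 51.3% in place of 47.3% and 3p 65.5% in place of 59.8%.

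**Figure D3:**
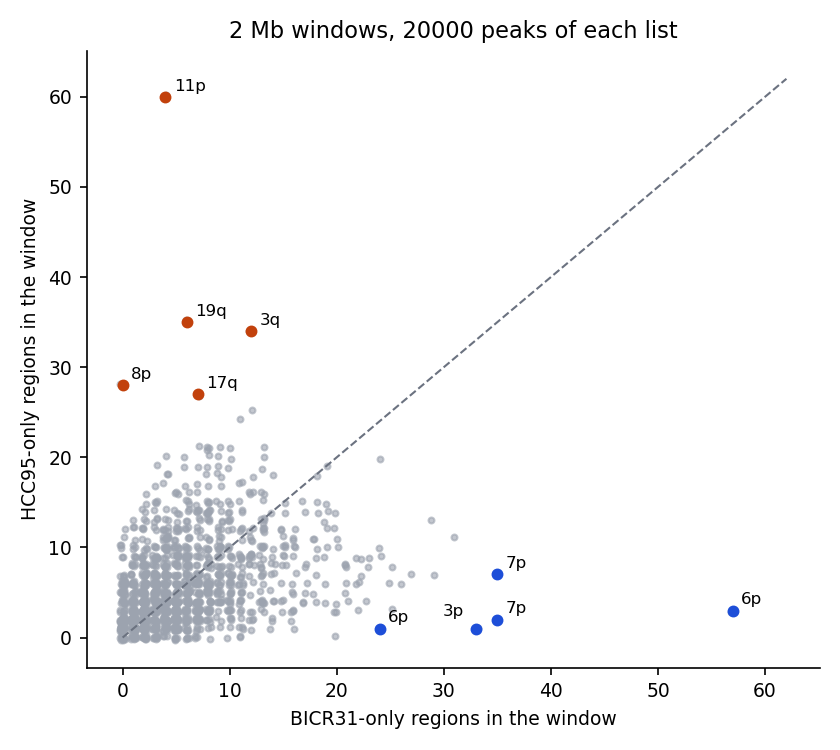
HCC95-only regions (vertical axis) against BICR31-only regions (horizontal axis) in each 2 Mb window, using 20000 peaks of each list; points are shifted slightly at random so that they can be told apart, and the dashed line marks equal numbers. The 5 windows with the largest difference to each side are coloured and named by arm; the 11p window stands at 60 against 4 and the rightmost 6p window at 3 against 57.

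The 11p window had the largest called coverage of any window in HCC95, at low fold. It holds EHF and ELF5, which encode epithelial ETS factors, PDHX, a pyruvate dehydrogenase subunit, CD44, the hyaluronan receptor of basal epithelial cells, and SLC1A2, a glutamate transporter. HCC95 had 91 peaks there, covering 134.7 kb, more than in any other of the 1376 windows of the full lists. BICR31 had 70 peaks and 70.2 kb. The HCC95 peaks were wide, with a median of 1466 bp, and of low fold, with a median of 2.77 against 3.80 over its list. BICR31 peaks in the window had a median of 941 bp and 3.56-fold. Of 441 windows with at least 20 HCC95 peaks, the 11p window had the second-lowest median fold, and the 8p window the lowest, at 2.75. Of the 41 HCC95-only regions of the 11p window in the full lists, 5 had a peak in any of the 6 other libraries.

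Within 50 kb of CD44 there were 7 shared, 6 HCC95-only and 3 BICR31-only regions in the full lists, with 24326 bases called in HCC95 and 10377 in BICR31. The region at the CD44 start, chr11:35160023-35161827, was shared and had a peak in all 6 other libraries. Its −log10 q was 41.3 in HCC95 and 6.32 in BICR31. The widest HCC95-only region of the equal-length comparison with no BICR31 peak, chr11:35237599-35241996, lay further along the gene. It was 4398 bp wide with a fold of 2.06 and a −log10 q of 7.90, and had no peak in any other library. At EHF there were 4 shared, 5 HCC95-only and 3 BICR31-only regions. They include another of the 5 widest HCC95-only regions, chr11:34661008-34664809, 3802 bp wide at 1.93-fold. SLC1A2 had 3 shared, 10 HCC95-only and 3 BICR31-only regions. A peak at the start of ELF5 was called in HCC95 only, 412 bp in all at 2.81-fold.

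The 8p window lies over NRG1, which encodes neuregulin, a ligand of the ERBB3 and ERBB4 receptors. NRG1 with its flanks held 18 HCC95-only, 2 shared and 2 BICR31-only regions, and 31962 bases in HCC95 against 4686 in BICR31. There were 12 consecutive HCC95-only regions in 240.1 kb at chr8:32129630-32369753, of 292 to 4211 bp and 1.64-fold to 3.51-fold. None of the 12 had a peak in 5 or more of the other libraries, and 2 had one in any. The largest, chr8:32165174-32169384, was the second-widest HCC95-only region. Both of the largest HCC95-only clusters, built by joining neighbouring regions, were here as well, at chr8:32150878-32193583 and chr8:32081330-32105171 with 5 regions each. The third such cluster, with 5 regions at chr3:189017679-189049168, and the third widest region, chr3:189116297-189120399 at 4103 bp, lay near TPRG1, upstream of TP63. The fifth widest, chr9:97674628-97678271, spanned 3644 bp.

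The longest run of consecutive HCC95-only regions was of a different nature. Over 990.1 kb at chr19:37157196-38147304, from ZNF461 to ZFP30, HCC95 had 18 regions and BICR31 had no peak. These peaks were ordinary in size, from 292 to 1592 bp, with folds of 3.44 to 5.51. All 18 were also among the 20000 HCC95 peaks. Of the 18, 12 had a peak in all 6 other libraries and all had one in at least 3. Here BICR31 was the line without peaks, and the other lines had them with HCC95. The stretch holds 20 protein-coding genes in the RefSeq table, of which 19 are named as zinc finger genes. A second such run, of 4 HCC95-only regions at chr19:56904576-57107196 near ZNF582, had peaks of all 6 other libraries in each.

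The mirror case was on 19p. At chr19:12075915-12267686, from ZNF763 to ZNF625, BICR31 had 8 consecutive regions and HCC95 had no peak over 191.8 kb. Their folds ran from 3.44 to 5.22, 5 of the 8 were among the 20000 BICR31 peaks, and 7 had a peak in all 6 other libraries. Other zinc finger clusters of the chromosome were mixed. At 19q13.43 the full lists had 34 shared, 6 HCC95-only and 17 BICR31-only regions, and at 19q13.41 they had 19 shared, 2 HCC95-only and 19 BICR31-only. At 19p12 the counts were 14 shared, 14 HCC95-only and 18 BICR31-only; 9 of the 14 HCC95-only regions and 0 of the 18 BICR31-only regions had peaks in all 6 other libraries. Over the genome, 193 HCC95-only regions were present in all 6 other libraries. Of these, 40 (20.7%) were on chromosome 19, which held 3.74% of all HCC95-only regions. Among regions present in all 6, chromosome 19 held 6.20% of the shared and 6.54% of the BICR31-only ones. The 40 include 12 and 4 regions of the 2 HCC95-only runs described above. The clusters were chosen after their counts had been seen.

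**Figure D4:**
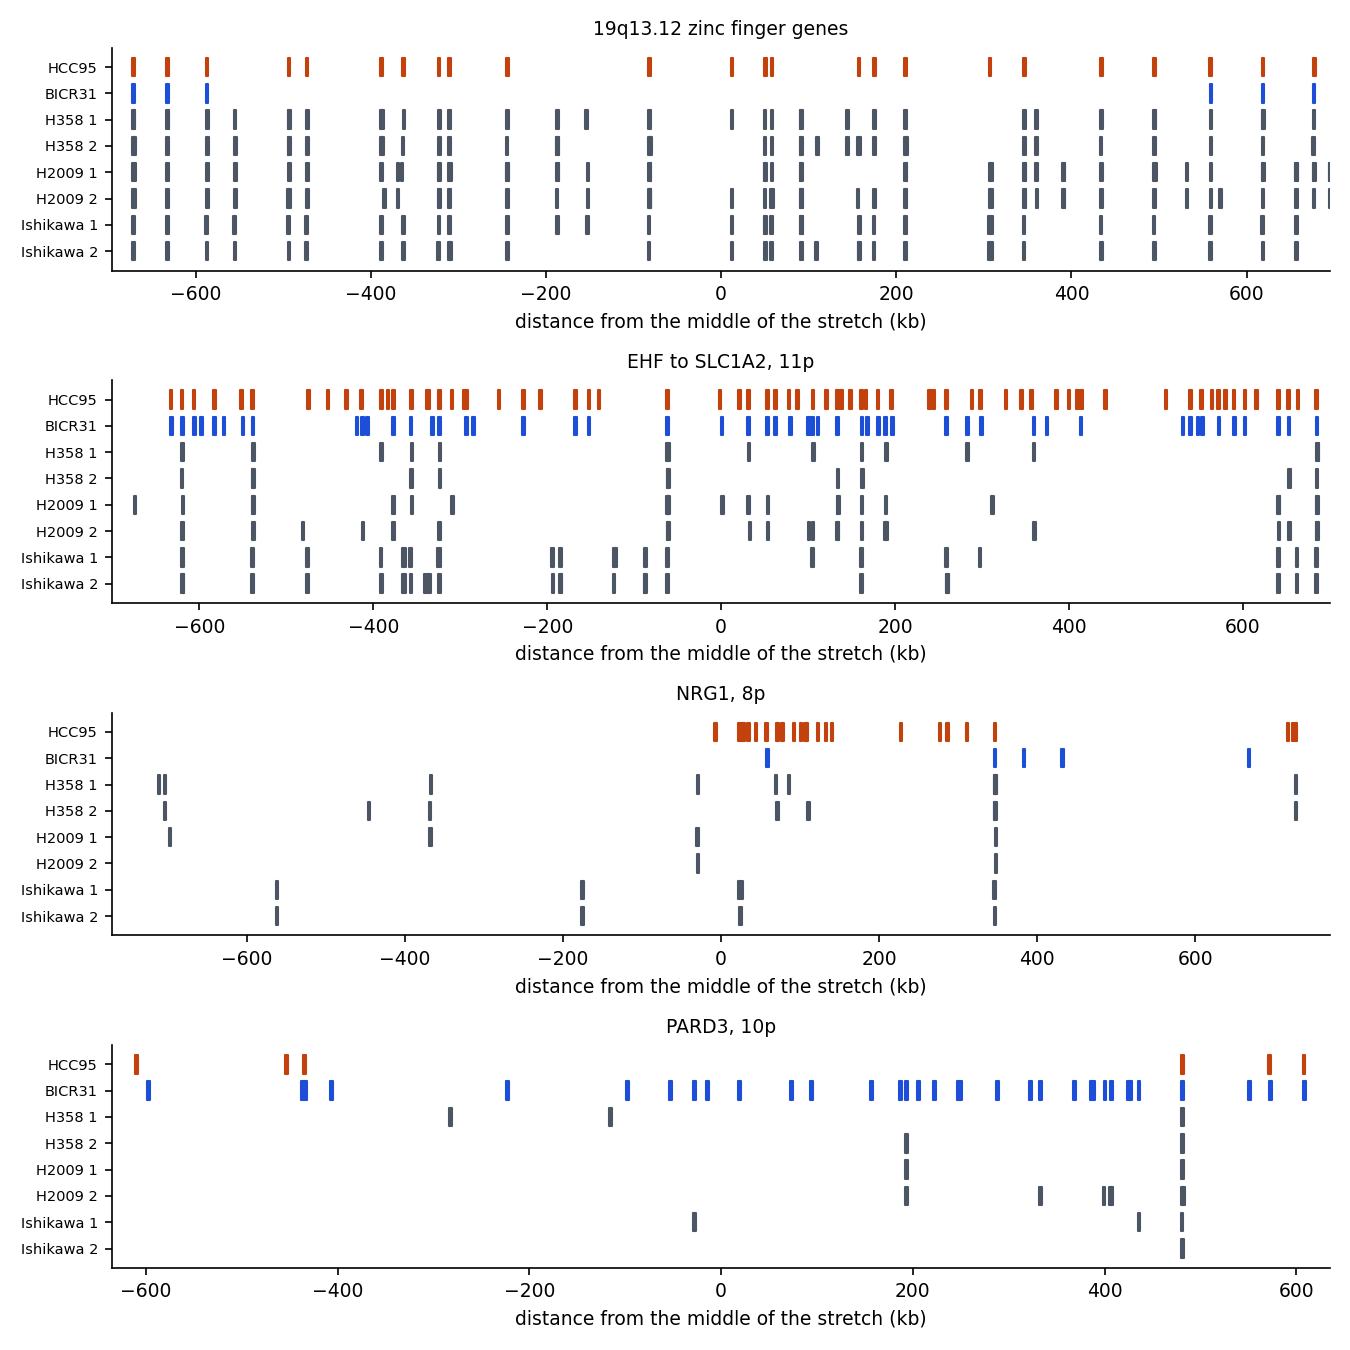
Peaks of HCC95 (orange), BICR31 (blue) and the 6 libraries of the other lines (grey) along 4 stretches, as distance in kb from the middle of each; peaks are drawn at least 3 kb wide so that they remain visible. In the zinc finger stretch the BICR31 row is empty where all other rows hold peaks, whereas over NRG1 the HCC95 peaks and over PARD3 the BICR31 peaks have few counterparts in the other lines.

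Runs of BICR31-only regions were longer, in a list that was also longer. The first, 38 consecutive regions over 1353 kb at chr6:28557532-29910859, ran into the MHC. Over the whole MHC window of chromosome 6, HCC95 had 35 peaks covering 23.9 kb and BICR31 182 peaks covering 192.5 kb. Of the 80 BICR31-only regions between 30 and 32 Mb in the full lists, 55 had a peak in at least 1 other library. Each of the 6 other libraries had between 64 and 78 peaks there, against 20 in HCC95 and 99 in BICR31. Of all HCC95 peaks, 193 were placed on alternate sequences of chromosome 6, which carry other versions of the MHC, and no BICR31 peak was. The part of this placement in the low HCC95 count was not tested.

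Other long BICR31-only runs had few counterparts in the other lines. There were 28 regions at chr10:34188655-35058276 over PARD3, a cell polarity gene, 5 of them with a peak in any other library. A run of 27 was at chr14:32978895-34384516 with NPAS3, a neuronal transcription factor gene, 6 of them found elsewhere. Another 27 lay at chr20:46333878-47003584 beside SULF2, which encodes a heparan sulfate endosulfatase, and none of these had a peak in any other library. On chromosome 10, 24 regions at chr10:7869061-9297748 included GATA3, which encodes a transcription factor of luminal and urothelial epithelium and of T cells. The other run of 24 was at chr6:139860436-141884043. On the HCC95 side, 11 consecutive regions at chr3:54461956-55034031 lay over CACNA2D3, a calcium channel subunit gene, and 10 at chr6:12494046-13048007 near PHACTR1, a phosphatase and actin regulator. Of these, 1 and 0 had a peak in any other library.

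The widest BICR31-only regions among those kept at equal length and with no peak in the whole HCC95 list were chr11:9587323-9591278 (3956 bp), chr19:12901247-12905065 (3819 bp), chr2:161061536-161065221 (3686 bp), chr14:62028338-62031837 (3500 bp) and chr17:21188231-21191719 (3489 bp). The ones on chromosomes 2 and 14 had a peak in all 6 other libraries. The highest folds were 11.6 at chr19:4246798-4247364, 10.4 at chr9:69710799-69711407 and 9.74 at chr6:30312923-30313384, then 9.34 at chr12:133841368-133842000 and 8.78 at chr12:8043713-8044273. Among HCC95-only regions the highest folds were lower. They were 7.67 at chr22:18717843-18718191, 7.38 at chr7:63774346-63774762, 7.29 at chr2:118380724-118381229, 7.09 at chr18:70639391-70639822 and 6.80 at chr1:177603153-177603521. The 3 leading BICR31-only clusters were chr19:12886031-12918057 with 5 regions, and chr11:12097211-12112853 and chr6:26183506-26206795 with 4 each.

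Gene loci were described through 128 gene windows in 11 groups, each with flanks of 50 kb. In the full lists BICR31-only regions were more numerous than HCC95-only regions at 100 loci, HCC95-only at 15, and 13 were even. At equal length the numbers were 53, 50 and 25. Summed over the loci at equal length, 41.7% of regions were shared, 30.2% HCC95-only and 28.1% BICR31-only, close to the shares over all regions. Neighbouring windows can hold the same region, which is then counted at each locus. Housekeeping loci were the most alike, with 68.2% of 44 regions shared.

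The starts of marker genes were checked first. Peaks of the 2 lines that mark a start need not overlap, and at IL6, marked in both, no region was shared. Of the 77 fixed loci whose start could be placed, 59 had the start marked in both lines. Among keratin, desmosome and hemidesmosome genes, which include KRT8 of simple epithelium, this held for 13 of 13 starts, as it did for 8 of 8 housekeeping starts. Among squamous factors it held for 9 of 12, SOX2, TFAP2A and PITX1 among them. The others were TP63, where only HCC95 had a peak in the window of the long start, and KLF5 and GATA3, marked in BICR31 only. Of 4 lung lineage starts, 1 was marked in both lines, 2 in BICR31 only and 1 in neither. The 8 lung lineage loci held 11 shared, 1 HCC95-only and 23 BICR31-only regions in the full lists, where 51.6% of all regions were BICR31-only. At equal length they held 6 shared, 6 HCC95-only and 5 BICR31-only. Across the 4 leukocyte, 3 endothelial and 3 fibroblast loci there were 16 shared, 1 HCC95-only and 25 BICR31-only regions in the full lists, and 8, 5 and 10 at equal length. PTPRC, the leukocyte CD45 gene, had no peak within its window in HCC95 and no peak at its start in BICR31, which had 5 elsewhere in the window.

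At the 16 squamous factor loci, 34.6% of regions were HCC95-only and 34.6% BICR31-only at equal length, with 30.8% shared. TP63, which encodes the p63 master factor of basal epithelium, had 10 shared, 6 HCC95-only and 3 BICR31-only regions in the full lists. Called bases there were nearly equal, at 22403 and 23007. At equal length 11 of its regions were HCC95-only, 3 shared and 3 BICR31-only. Neither line had a peak directly at the long, upstream start of TP63; the nearest after it, chr3:189369601-189370440, was called in HCC95 alone at 3.39-fold. The region around the internal start, chr3:189507983-189510578, was shared at 2.70-fold and 2.64-fold. FOXE1, a forkhead factor of thyroid and foregut epithelium, had 5 HCC95-only, 4 shared and 2 BICR31-only regions, and 12931 bases in HCC95 against 6146 in BICR31.

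TFAP2A, GRHL2, KLF5 and GATA3 had more BICR31-only than HCC95-only regions in the full lists and at equal length. TFAP2A, which encodes AP-2 alpha, had 8 BICR31-only, 4 shared and 0 HCC95-only regions, with 17858 bases in BICR31 and 2997 in HCC95. GRHL2, an epithelial grainyhead factor, had 11 BICR31-only, 4 shared and 0 HCC95-only regions. At KLF5, a zinc finger factor of basal and gut epithelium, 4 regions were BICR31-only and 2 shared. The peak just after its start, chr13:73632478-73635033, 2556 bp wide at 2.67-fold, was called in BICR31 only and had a peak in 3 other libraries. GATA3 had no HCC95 peak and 3 BICR31-only regions, with the start at chr10:8095569-8097004 at 3.80-fold. At equal length the BICR31-only and HCC95-only regions numbered 7 and 1 at TFAP2A, 5 and 0 at GRHL2, 2 and 0 at KLF5 and 1 and 0 at GATA3.

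Of the 22 keratin, desmosome and hemidesmosome loci, 47.2% of 144 regions were shared at equal length, 34.7% HCC95-only and 18.1% BICR31-only. After CD44, the largest HCC95 difference was at PKP1, which encodes plakophilin 1 of the desmosome, with 7 HCC95-only and 0 BICR31-only regions beside 5 shared. Called bases at PKP1 in the full lists were 17240 in HCC95 and 11603 in BICR31. KRT14 and KRT19 followed, the basal keratin 14 with 3 HCC95-only and 0 BICR31-only, and keratin 19 with 4 and 1. LAMA3, a chain of laminin 332 in the hemidesmosome, went the other way, with 12 BICR31-only, 6 shared and 0 HCC95-only regions in the full lists, and 6, 2 and 1 at equal length. KRT5, the partner of KRT14, had 4 shared, 2 HCC95-only and 1 BICR31-only.

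Loci of keratinocyte differentiation held more BICR31-only than HCC95-only regions in the full lists at 9 of 9, and at equal length the sums were 11 and 11. The small proline-rich SPRR genes had 12 BICR31-only and 2 HCC95-only regions in the full lists, and 2 of each at equal length. IVL, which encodes involucrin of the cornified envelope, had a peak at its start in BICR31 only, and S100A8 and S100A9 had no HCC95 peak and 3 BICR31-only regions, 1 of them at equal length.

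NFE2L2, the oxidative stress factor often activated in squamous carcinoma, and its target genes held 38.9% HCC95-only, 20.4% BICR31-only and 40.7% shared regions at equal length. All 9 starts of the group that could be placed were marked in both lines. The aldo-keto reductase genes AKR1C1 to AKR1C3 had 6 HCC95-only and 1 BICR31-only regions at equal length. In the full lists they had 5 and 6, although HCC95 had more called bases there, 9612 against 5847. AKR1B10 had 8552 bases in HCC95 and 4124 in BICR31, and the aldehyde dehydrogenase gene ALDH3A1 had 8673 and 2935. NFE2L2 itself had 5 HCC95-only, 2 shared and 1 BICR31-only regions in the full lists. In contrast, SLC7A11, which encodes the cystine transporter, had 5 BICR31-only regions and no HCC95 peak, and HMOX1, heme oxygenase, had 7 BICR31-only, 2 shared and 0 HCC95-only. At equal length SLC7A11 had 1 BICR31-only region and HMOX1 had 3, with no HCC95-only region at either.

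Receptor, ligand and cell cycle loci held 21.1% HCC95-only and 34.2% BICR31-only regions at equal length. EGFR itself had 8 shared and 7 BICR31-only regions in the full lists, and 4 shared, 3 HCC95-only and 4 BICR31-only at equal length, with full-list totals of 15175 bases in HCC95 and 18244 in BICR31. Its ligand genes AREG and EREG had 1 shared region, chr4:75263409-75264501, which lies between them and is counted at both. BICR31 alone had peaks at the AREG start (chr4:75310513-75311895, 3.82-fold) and the EREG start, where chr4:75228835-75231167 and chr4:75240149-75242687 were called. These regions had a peak in 4, 4 and 3 of the other libraries. The first 2 TATA boxes printed above belong to these 2 genes. The starts of the group's other EGFR ligand genes, TGFA and HBEGF, were marked in both lines. At equal length TGFA had 3 HCC95-only and 1 BICR31-only regions and HBEGF 1 of each, against 0 and 2 at AREG and at EREG. CDKN2A and CDKN2B, which encode the cell cycle inhibitors p16 and p15, had no HCC95 peak in their window. BICR31 had 5 there, 2 of them among its 20000 peaks. Of the 5, chr9:21994152-21996118 had a peak in 5 and chr9:22008208-22009748 in all 6 of the other libraries.

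**Figure D5:**
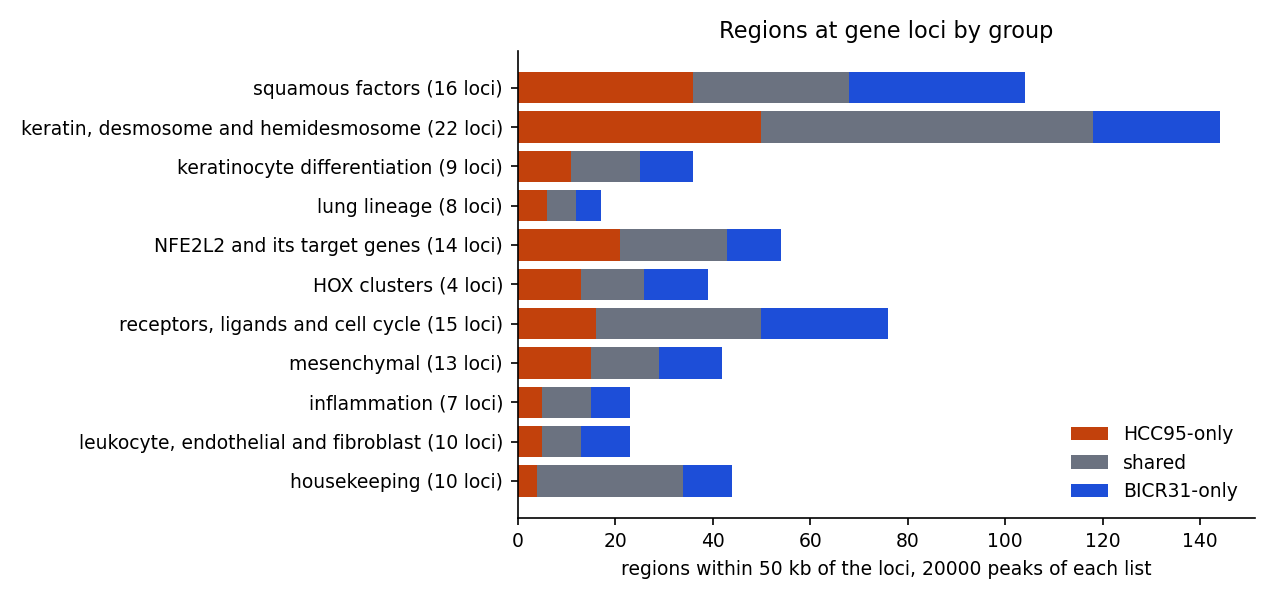
Number of HCC95-only (orange), shared (grey) and BICR31-only (blue) regions within 50 kb of the loci of each group, using 20000 peaks of each list; a region near several loci counts at each. Keratin, desmosome and hemidesmosome loci held 50 HCC95-only and 26 BICR31-only regions, and housekeeping loci 30 shared of 44.

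Inflammation loci had 26 BICR31-only, 2 HCC95-only and 18 shared regions in the full lists, and 8, 5 and 10 at equal length. At equal length HCC95-only regions were more numerous at 3 of the 7 loci and BICR31-only regions at 2. The start of CXCL8, chr4:74605582-74606530, was called in BICR31 only at 3.71-fold and had no peak in the other lines; a region upstream, chr4:74568938-74571648, was shared at 2.81-fold and 2.79-fold. LIF, a cytokine of the interleukin 6 family, had 7 BICR31-only, 4 shared and 1 HCC95-only in the full lists, and 5, 2 and 1 at equal length. There the CXCL8 window had no region in either line. Among lung lineage genes, NKX2-1, the master factor of the lung alveolar lineage, had no HCC95 peak and 3 BICR31-only regions. None of these was among the 20000 BICR31 peaks. GATA6 likewise had 0 and 3, of which 2 were at equal length. FOXA1 had 2 shared and 4 BICR31-only regions, and 2 of each at equal length. Other lung lineage genes leaned to HCC95 at equal length. HCC95-only and BICR31-only regions there numbered 3 and 1 at SFTPC, 2 and 0 at SFTPB and 1 and 0 at FOXA2. In the full lists the numbers were 0 and 6 at SFTPC, 0 and 1 at SFTPB and 1 and 0 at FOXA2. SFTPC and SFTPB had 4 and 3 shared regions in the full lists. At equal length HCC95-only regions were thus more numerous at 3 of the 8 lung lineage loci and BICR31-only regions at 2. In the full lists these counts were 1 and 7.

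Mesenchymal loci were mixed, with 35.7% HCC95-only, 30.95% BICR31-only and 33.3% shared of 42 regions at equal length. CDH2, which encodes N-cadherin, had a peak near its start in HCC95 only, 444 bp at 4.30-fold, and 2 regions of each line alone. TGFBI, a matrix protein induced by TGF-beta, had 7 BICR31-only and 1 HCC95-only regions in the full lists and 2 and 1 at equal length, and its start was called in BICR31 only. SPARC, a matricellular protein gene, had 4 HCC95-only and 1 BICR31-only regions at equal length. In the full lists it had 1 HCC95-only, 2 BICR31-only and 4 shared regions. The HOX clusters, which record position along the body axis, held 13 regions of each class at equal length. Of the 4, HOXC leaned to BICR31 with 5 against 2, HOXA to HCC95 with 6 against 4 and HOXD to HCC95 with 2 against 1, and HOXB was even with 3 each.

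Over the 77 fixed loci whose start could be placed, 59 starts were marked in both lines, by peaks that need not overlap. Another 9 were marked in BICR31 only, 2 in HCC95 only and 7 in neither. Starts were marked from the full lists only, where 51.6% of all regions were BICR31-only and 13% HCC95-only. The 9 were KLF5, GATA3, IVL, NKX2-1, GATA6, AREG, EREG, TGFBI and CXCL8, and the 2 were TP63 and CDH2. At TP63 the HCC95 peak lay after the long start and not directly at it, and the region around the internal start was shared. Called bases over the whole window, also from the full lists, were higher in BICR31 at 110 of 128 loci and in HCC95 at 18. The medians were 6459 and 3573 bases. The full lists themselves covered 39.8 Mb in BICR31 and 21.05 Mb in HCC95. The part of list length in this count was not tested.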

How the data were processed

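Each of the 12 samples has its own deposited peak list. Reads were aligned with BWA to hg19, per the submitters' processing notes; for the BWA version, peak caller, control and any pooling, nothing is given in the sources used here. The HCC95 and BICR31 lists have the broadPeak form, and the authors deposited for each peak a fold enrichment (a ratio to the local background), with its −log10 p and −log10 q. These served to rank, filter and describe peaks within a list. The narrowPeak lists of H358 and H2009 and the Ishikawa lists, whose deposited score was not used, gave positions only. The 4 other H2009 lists were not used here.

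Peaks on chromosomes 1 to 22 were kept, which left out 858 HCC95 peaks (3.62%) and 1026 BICR31 peaks (2.43%). Peaks of both lists overlapping by 1 bp or more were merged into regions, for the full lists and for the 20000 peaks of highest −log10 q in each, with ties broken by fold. Depth is unknown, so no value carries a depth-based interval; 95% Wilson intervals of shares cover counting error only. With 1 library a line there was no test. The merging was tested on simulated lists.

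No gene annotation of the hg19 build was used. Locus positions are hg19 positions from general knowledge, rounded to 10 kb, with flanks of 50 kb, so exon and intron were not assigned. All 141 single genes among them were on the same chromosome in the GRCh38.p14 RefSeq table. The length differed from that table by over 50 kb at 4 of these genes, TPRG1 among them. Arms were split at rounded hg19 centromere positions, and 2 Mb windows were placed by region midpoint. A gene start was placed where the RefSeq promoter table had an entry. Promoter sequences are RefSeq's, in GRCh38.p14, and none of their positions were joined to hg19.

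Members and gene lists were chosen with earlier results of these data known. Of the loci, 128 in 11 groups were listed first, and 24 more (NRG1, TPRG1, SLC1A2, PARD3, ELF5 and others) were added after their counts had been seen, as were the zinc finger clusters and the runs. Named loci were up to 5 a group with the largest difference at equal length; named regions were the 5 widest and 5 of highest fold per line, the 3 leading windows and the 3 leading clusters. KLF5, GATA3, SLC7A11, NFE2L2, KRT5, EGFR, IVL, CXCL8, SPRR, NKX2-1, TGFBI, CDH2 and the CDKN2A locus fall outside that rule and were named after their values had been seen. Alternatives covered list length, −log10 q, overlap, merging distance, chromosomes and flanks. Tools were Python 3.11.15, pandas 2.3.3, numpy 2.4.6, scipy 1.17.1 and matplotlib 3.10.9.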

Additional observations from a re-analysis of the deposited data

Results flagged for a closer look

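Outside the numbered chromosomes, X and Y, the HCC95 list held 282 peaks, all on alternate or unplaced sequences; 193 of them were on alternate sequences of chromosome 6. BICR31 had 0 on such sequences. This signal lies outside the chromosomes compared.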

How the results depend on the processing

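Counts moved mainly with list length and threshold. From full lists of 16668 shared, 6155 HCC95-only and 24356 BICR31-only regions, BICR31-only fell to 8168 with 20000 peaks of each list. With 10000 peaks there were 5363 shared, 4634 HCC95-only and 4625 BICR31-only regions. At a −log10 q of at least 2, HCC95-only regions numbered 3486; at 5 or more, there were 1493 shared, 604 HCC95-only and 7795 BICR31-only. Of the arms, 12 lay over 1.2 times the overall HCC95-only share and 11 under its inverse in the full lists; with 20000 peaks 7 lay over, and at −log10 q of at least 5 there were 19 under. Loci with more HCC95-only regions numbered 15, then 50 with 20000 peaks, 27 with 10000 and 2 at −log10 q of at least 5; those with more BICR31-only regions numbered 100, then 53 and 48. Presence in the other lines rose with 20000 peaks to 92.8% (shared), 47.8% (HCC95-only) and 55.1% (BICR31-only), and at −log10 q of at least 5 to 99.1%, 83.6% and 89.4%. The cause of these moves was not tested, beyond the fewer peaks each setting keeps.

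The difference of HCC95-only and BICR31-only regions turned sign at 5 loci. AKR1C1 to AKR1C3 went to 5 with 20000 and 2 with 10000 peaks, HOXA to 2 and 4, and HOXD to 1 and 3, all from below 0. At −log10 q of at least 5, FOXE1 went to −1 and NFE2L2 to −2. At that threshold the difference was 0 at TP63 and PKP1 of the HCC95 side, and at AREG, EREG, GATA3 and GATA6 of the BICR31 side. The other 45 values of the main counts stayed within 1.5 times. Among these were leaving out the MHC, adding chromosome X, merging within 1 kb, and, chosen after seeing the data, leaving out 11p at equal length. No paired analysis was possible because each line had 1 library. Peak lists hold no reads, so a missing peak gives no upper limit on acetylation.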

Other observations

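The HCC95-only run at chr7:70250039-72029221, 9 regions over 1779 kb, and the run of 8 at chr3:66514907-66813653, near LRIG1, which encodes a negative regulator of EGF receptor signalling, had no BICR31 peak. Of these, 0 and 1 regions had a peak in any of the 6 other libraries. LRIG1 had 4 HCC95-only regions in its window, and its start was called in HCC95 only, at 4.24-fold. ACTN4, which encodes an actin-crosslinking alpha-actinin and lies in the 19q window, had 5 HCC95-only, 4 shared and 3 BICR31-only regions in the full lists, and 5, 4 and 0 at equal length. SETD5, a chromatin regulator in the 3p window, had 10 BICR31-only, 2 shared and 0 HCC95-only regions, with 15808 bases in BICR31 and 1472 in HCC95. RAC1, a small GTPase of cell migration, had 8 BICR31-only, 5 shared and 1 HCC95-only.

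Of the 566 BICR31-only regions with a peak in all 6 other libraries, 59 (10.4%) were on chromosome 6, and 31 of these lay in the MHC window. Chromosome 6 held 382 of the 8307 shared regions of that kind (4.60%), 22 of them in that window. Of the 193 HCC95-only regions of that kind, 9 were on chromosome 6 and 0 in that window. On the long arm of chromosome 8, the window from 128 to 130 Mb, which holds MYC, had the third-lowest median fold of HCC95 peaks, at 2.88 over 32 peaks; BICR31 had 65 peaks there with a median of 3.53.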
